A study of Mus musculus with 6 samples.

Results

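The ADAMTS genes encode secreted metalloproteases of the extracellular matrix, and 10 of them were examined here in mouse growth plate cartilage: Adamts1, Adamts2, Adamts3, Adamts4, Adamts5, Adamts6, Adamts9, Adamts10, Adamts12 and Adamts17. Their rows were taken from the expression table by gene symbol. Of the 15803 genes listed there, 9 were members, and Adamts17 was not analysed here. Of these 9 genes, 8 had a mean of at least 1 CPM (reads on a gene per 1000000 reads of the library) and were tested among 12155 genes, and Adamts6 was below that level.

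The RNA was from growth plate cartilage of E18.5 embryos, in 6 libraries of 2 genotypes. For 3 of them, labelled CKO, the genotype was Col2a1-Cre;Hnrnpk fl/fl. The Col2a1 promoter drives Cre in chondrocytes, where it cuts out loxP-flanked exons of Hnrnpk, the gene of an RNA-binding protein. For the other 3, labelled WT, it was Hnrnpk fl/fl, so that both genotypes carried the floxed allele and only CKO carried Cre. Strain is not given in the sources used here, embryos of both sexes were used, and the labels do not say whether each library came from a separate embryo, so p-values measure the spread between these libraries.

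An ADAMTS protease is made as an inactive precursor, is activated by furin-like convertases, and cuts matrix proteins with a zinc ion held by 3 histidines. In cartilage the family is known for the aggrecanases, which cut aggrecan, the proteoglycan that gives the tissue its resistance to compression. Other branches remove the N-terminal propeptide of procollagens, cut cartilage oligomeric matrix protein, or act on fibrillin microfibrils. Tissue inhibitor of metalloproteinases 3 (Timp3) blocks the aggrecanases, and the endocytic receptor Lrp1 takes up several ADAMTS proteases from the matrix.

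The zinc-binding site, which the members share and from which the family takes its activity, is shown as coding sequence for the 4 members with the highest level per length. The sequences are of the sense strand, 5′ to 3′, from the GENCODE M21 transcripts on GRCm38. Capitals mark the codons of the 3 histidines, the catalytic glutamate and the aspartate.
Adamts1: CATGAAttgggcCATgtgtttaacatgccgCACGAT
Adamts10: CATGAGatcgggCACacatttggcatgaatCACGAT
Adamts4: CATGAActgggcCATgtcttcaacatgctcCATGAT
Adamts5: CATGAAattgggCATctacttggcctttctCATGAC
The site of Adamts1 lies at chr16:85799188-85799545 on the minus strand, that of Adamts10 at chr17:33538157-33538282 on the plus strand, that of Adamts4 at chr1:171253210-171253918 on the plus strand and that of Adamts5 at chr16:85878012-85887826 on the minus strand. Each site of 36 bases was split over 2 exons, exons 3 and 4 in Adamts1 and Adamts4, exons 2 and 3 in Adamts5, and exons 9 and 10 in Adamts10. Compared with Adamts1 base by base, the site of Adamts4 was identical at 30 of 36 positions, that of Adamts10 at 23 and that of Adamts5 at 22. The motif searched in the translated transcripts was histidine and glutamate, any 2 residues, histidine, any 5 residues, histidine and aspartate. It was found in 10 of 10 members and in 9 of 9 other ADAMTS genes of the annotation, and in 0 of 7 genes of ADAMTS-like proteins, which share the ancillary domains of the family but have no protease domain. The members differed widely in length. The coding sequence was 2535 bases long in Adamts4, 2790 in Adamts5 and 2904 in Adamts1, against 4800 in Adamts12 and 5793 in Adamts9, which carries many more thrombospondin repeats.

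The libraries were shallow, with 1183743 to 1379674 reads in WT and 1153871 to 1454094 in CKO, so that 1 read stood at 0.688 to 0.867 CPM and 3 reads, the floor used here, at 2.06 to 2.60 CPM. Hnrnpk itself, as total reads on the gene, measured 842, 955 and 944 CPM in WT and 759, 950 and 780 CPM in CKO, and these values overlapped, so the genotypes are taken from the labels. The deletion covers only some exons of the gene. The study reported an effective knockout at the protein level in CKO growth plates of an earlier stage, by western blot and immunostaining. The chondrocyte markers were abundant in every library, and their summed level was 26851 to 34529 CPM in WT and 6636 to 7156 CPM in CKO, with 11 of 15 lower past limma's adjusted threshold. Of the hypertrophic markers, 1 of 7 tested passed, Spp1 (osteopontin), which was higher and made up most of their sum of 1472 to 4598 CPM in WT and 12406 to 15218 CPM in CKO. The fibroblast and perichondrium markers measured 4073 to 6675 CPM and 1739 to 3152 CPM, with 3 of 11 lower. The epidermal keratinocyte markers measured 27.0 to 53.6 CPM and 133 to 203 CPM. Of the 9 listed, only 3 were tested, and 1 was higher (Perp), so which cells this sum came from is not known. The summed macrophage and osteoclast markers overlapped, but all 12 had a positive log2 fold change and 1, Cd68, passed, at 6.75 to 11.8 CPM in WT and 46.9 to 76.3 CPM in CKO. The sums of the osteoblast, endothelial, skeletal muscle and erythroid markers overlapped, with 0 past the threshold, and Cdh5, Tie1 and Pecam1 of endothelium were at 0 or 1 read in every library. CKO 2 stood apart from CKO 1 and CKO 3, with 367 CPM of osteoblast markers (1276 and 1370), 1739 CPM of fibroblast markers (3152 and 3123), 377 CPM of Mmp13 (2155 and 2301) and 179 CPM of the muscle gene Myog (15.1 and 13.0). WT 3 stood apart from WT 1 and WT 2, with 4598 CPM of hypertrophic markers (1472 and 1486), 276 CPM of muscle markers (95.7 and 63.8), 146 CPM of the tendon gene Tnmd (34.8 and 36.8) and 270 CPM of the macrophage gene Lyz2 (51.5 and 54.8). WT 3 was also the highest WT library for Adamts1, Adamts3, Adamts4, Adamts5, Adamts10 and Acan, and the part of these other transcripts in the values below was not tested.

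No ADAMTS member was called different between CKO and WT. Of 8 members tested, 0 passed an adjusted p of 0.05 (limma on log2(CPM + 1), Benjamini-Hochberg over all genes tested), where 5.78% of all genes tested did, 3.18% higher and 2.6% lower in CKO. The criterion of the study (unadjusted p under 0.05 and a log2 fold change outside -1 to 1) was met by 0 of 8 members and by 10.4% of all genes. An unadjusted p under 0.05 was reached by 0 of 8 members and by 21.3% of all genes. The 3 CKO libraries lay wholly above or wholly below the 3 WT libraries for 0 of 8 members and for 27.7% of all genes. The log2 fold change was positive for 4 members and negative for 4, and its median over the 8 was 0.013, as was the median over all genes. On the reads recovered from the CPM, 0 of the 3 members kept by the filter of edgeR passed its quasi-likelihood test, and 0 of the 4 members that DESeq2 gave an adjusted p passed with it. The number of members is small, and most had few reads: 1 member, Adamts1, had at least 10 reads in every library.

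**Figure D1:**
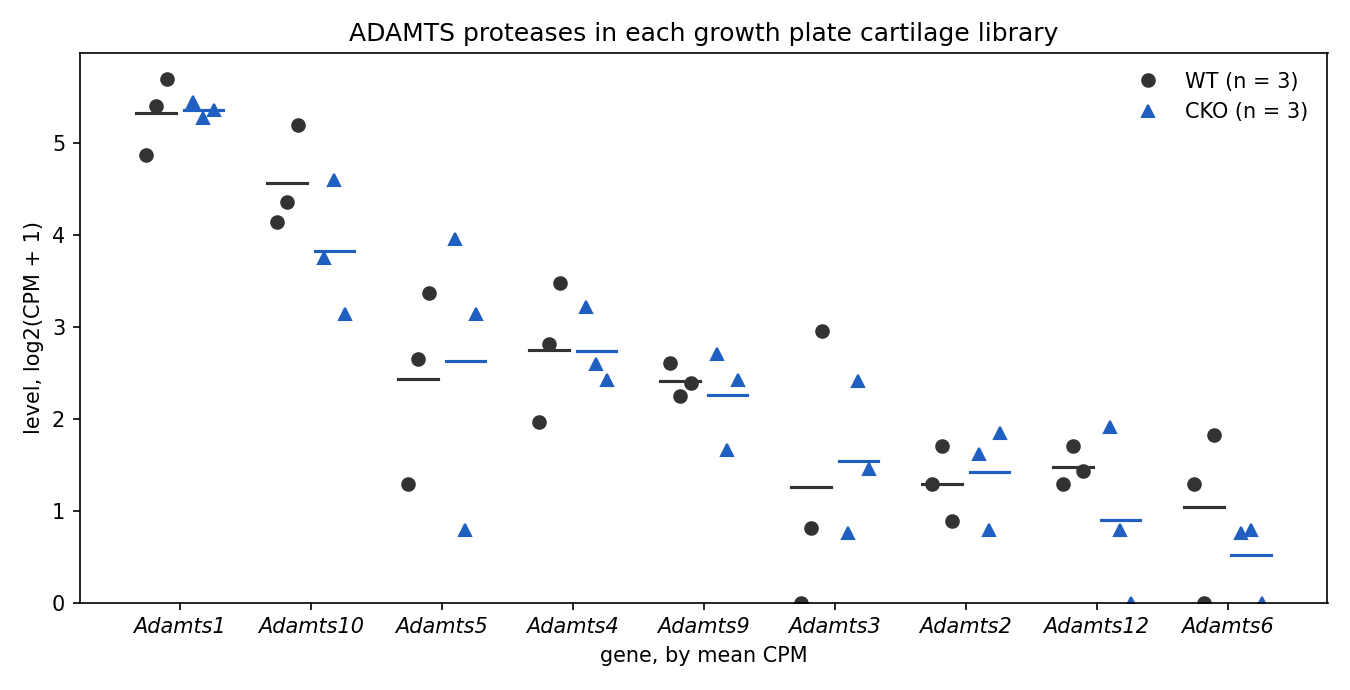
Level of each ADAMTS gene in each library, as log2(CPM + 1), ordered by mean CPM, with circles for the 3 WT libraries, triangles for the 3 CKO libraries and horizontal bars for the group means. The circles and triangles overlap for all 9 genes shown, and Adamts1, at 28.3 to 50.7 CPM, is the highest.

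Together the 9 genes took 646 reads over the 6 libraries. Adamts1 held 48.6% of them and Adamts10 held 23.2%, while Adamts5, Adamts4 and Adamts9 held 7.89%, 7.43% and 5.11%. The summed CPM of the 9 genes was 58.7, 81.0 and 121.6 in WT and 89.4, 75.1 and 68.5 in CKO. WT 1 was the lowest and WT 3 the highest of all libraries, with the CKO libraries between them.

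Per kb of exon, the order of the mean levels was Adamts1 (7.55 CPM per kb), Adamts10 (2.32), Adamts4 (1.27), Adamts5 (0.602), Adamts3 (0.438), Adamts9 (0.277), Adamts2 (0.177), Adamts12 (0.135) and Adamts6 (0.115). Adamts1 was above Adamts10 in 6 of 6 libraries, and its range over libraries, 5.33 to 9.56 CPM per kb, did not overlap that of Adamts10, 0.945 to 4.30. The ranges of all other neighbours in the order overlapped, although Adamts4 was above Adamts5 and Adamts9 above Adamts2 within each of the 6 libraries. Exon lengths came from GENCODE M21, which may not be the annotation the authors counted on.

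**Figure D2:**
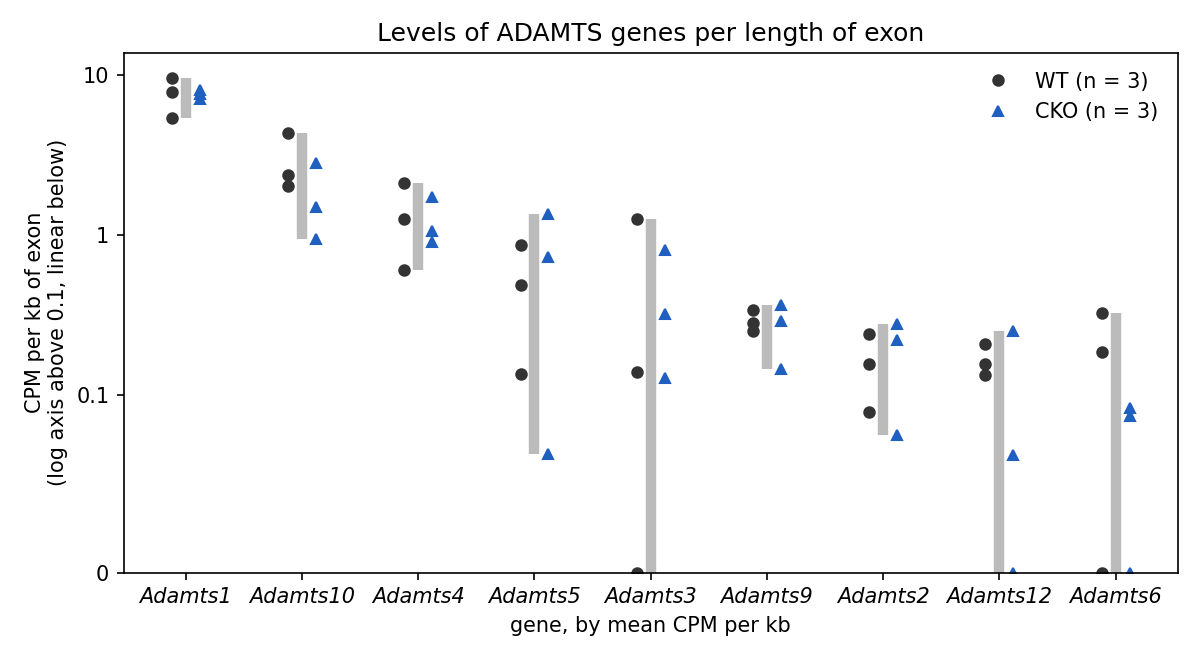
Level of each ADAMTS gene in CPM per kb of exon (log axis above 0.1, linear below), with circles for the 3 WT libraries, triangles for the 3 CKO libraries and grey bars for the range over all 6. Only the bar of Adamts1, from 5.33 to 9.56, is clear of the bar of the gene next to it in the order.

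Among the proteoglycanases, Adamts1 (ENSMUSG00000022893, chr16:85793827-85803113, minus strand), which cuts aggrecan and versican, was by far the best measured. It had 39, 55 and 60 reads in WT 1, 2 and 3 and 62, 52 and 46 reads in CKO 1, 2 and 3, or 28.3, 41.3 and 50.7 CPM against 42.6, 37.5 and 39.9 CPM. The 3 CKO values lay inside the WT range, with WT 1 the lowest library and WT 3 the highest. The means were 40.1 ± 11.3 CPM in WT and 40.0 ± 2.56 CPM in CKO (SD, n = 3 each). The log2 fold change was 0.03 with a standard error of 0.25 (limma, adjusted p = 0.956), and its 95% interval ran from -0.51 to 0.58, or from 0.702-fold to 1.49-fold. With the spread of these libraries, Adamts1 would have needed a 1.94-fold change on that scale to pass the adjusted threshold. That is the size the estimate needed for a call. A true change of that size or smaller could have been missed at this depth and number of libraries. In bulk RNA, fewer cells of a type and less RNA per cell cannot be told apart.

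Adamts5 (ENSMUSG00000022894, chr16:85856173-85901828, minus strand), the main aggrecanase of mouse cartilage, is the neighbour of Adamts1, 53059 bp away and on the same strand. It had 2, 7 and 11 reads in WT and 21, 1 and 9 reads in CKO, or 1.45, 5.25 and 9.29 CPM against 14.4, 0.722 and 7.80 CPM. CKO 1 was the highest and CKO 2 the lowest of the 6 libraries, so the CKO group enclosed the WT group. The log2 fold change was 0.19 with a standard error of 0.79 (limma, adjusted p = 0.920), and its 95% interval, -1.56 to 1.94, covered changes from 0.340-fold to 3.83-fold. A call would have needed an 8.30-fold change. The value turned on single libraries: it was 1.11 (adjusted p = 0.269) without CKO 2 and -0.47 (adjusted p = 0.817) without CKO 1, and it was also negative without WT 1 (-0.38) and without CKO 3 (-0.067). The low value in CKO 2 stood beside the low osteoblast markers and Mmp13 of that library, whose part in it was not tested.

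Adamts4 (ENSMUSG00000006403, chr1:171250421-171260637, plus strand), the other classical aggrecanase, had 4, 8 and 12 reads in WT and 12, 7 and 5 reads in CKO. In CPM these were 2.90, 6.004 and 10.1 against 8.25, 5.05 and 4.33. The CKO values lay within the WT range, and the sum was 24 reads in both groups. The log2 fold change was -0.0087 with a standard error of 0.46 (limma, adjusted p = 0.994), and its interval ran from -1.04 to 1.02.

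Adamts9 (ENSMUSG00000030022, chr6:92772699-92943492, minus strand), a versican and aggrecan protease with a conserved C-terminal GON domain, had 7, 5 and 5 reads in WT and 8, 3 and 5 reads in CKO. The CPM values were 5.07, 3.75 and 4.22 in WT and 5.50, 2.17 and 4.33 in CKO, and the groups overlapped, with both extremes in CKO. The log2 fold change was -0.15 with a standard error of 0.43 (limma, adjusted p = 0.875). This gene overlaps an antisense gene of the table, A730049H05Rik, and whether the reads were counted by strand is not given in the sources used here, so its reads are uncertain, as are those of any other member that shares its locus with an antisense gene.

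Taken as a sum, Adamts1, Adamts4 and Adamts5 measured 32.6, 52.5 and 70.1 CPM in WT and 65.3, 43.3 and 52.0 CPM in CKO. The make-up of that sum differed among the libraries of both genotypes. Adamts4 and Adamts5 together had few reads, with 6, 15 and 23 in WT and 33, 8 and 14 in CKO, so the ratios are rough. For each read of Adamts4 and Adamts5 there were 1.88, 6.50 and 3.29 reads of Adamts1 in the CKO libraries, in order, and 6.50, 3.67 and 2.61 in the WT libraries.

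Of the members linked to fibrillin microfibrils, Adamts10 (ENSMUSG00000024299, chr17:33524204-33553782, plus strand) was the second most abundant. ADAMTS10 is mutated in Weill-Marchesani syndrome, a disorder with short stature. It had 23, 26 and 42 reads in WT and 18, 32 and 9 reads in CKO, or 16.7, 19.5 and 35.5 CPM against 12.4, 23.1 and 7.80 CPM. CKO 1 and CKO 3 were below every WT library, while CKO 2 was above WT 1 and WT 2. The means were 23.9 ± 10.1 CPM and 14.4 ± 7.85 CPM (SD, n = 3 each). This was the member with the smallest p, at a log2 fold change of -0.74 with a standard error of 0.41 and a 95% interval of -1.65 to 0.17 (limma, unadjusted p = 0.101, adjusted p = 0.331). The exact two-sided permutation test over the 6 libraries gave p = 0.3, and 3 libraries against 3 cannot go below 0.1. Summed over libraries, the reads went from 91 in WT to 59 in CKO, a ratio of 0.633 per read sequenced with a 95% interval of 0.448 to 0.887 that covers counting error only. The spread between the CKO libraries, from 7.80 to 23.1 CPM, comes on top of that error and is what the limma interval includes. Without CKO 2 the log2 fold change was -1.12 (limma, unadjusted p = 0.0118, adjusted p = 0.0811), which met the criterion of the study and missed the adjusted threshold. In that fit 1484 of 12055 genes tested met the criterion. Without CKO 3 the log2 fold change of Adamts10 was -0.40 (limma, unadjusted p = 0.357, adjusted p = 0.676) and without WT 3 it was -0.43 (unadjusted p = 0.342, adjusted p = 0.623).

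Adamts6 (ENSMUSG00000046169, chr13:104287835-104496695, plus strand), the closest relative of Adamts10, had 2, 0 and 3 reads in WT and 1, 1 and 0 reads in CKO. With no more than 3 reads in any library it stayed at the floor in both groups, and no fold is given.

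The members of the procollagen branch were scarce. Adamts2 (ENSMUSG00000036545, chr11:50602084-50807573, plus strand), the N-proteinase of fibrillar procollagens whose loss causes dermatosparaxis, had 2, 3 and 1 reads in WT and 3, 1 and 3 reads in CKO, and stood at the floor in every library. Adamts3 (ENSMUSG00000043635, chr5:89677087-89883334, minus strand), which processes procollagen II in cartilage cells and the lymphatic growth factor Vegfc, had 0, 1 and 8 reads in WT and 1, 6 and 2 reads in CKO. WT 3 and CKO 2 thus held most of its 18 reads. Its log2 fold change of 0.29 had a standard error of 0.76 (limma, adjusted p = 0.869), and a 7.73-fold change would have been needed for a call. The sums were 9 reads in both groups and the mean CPM was slightly lower in CKO (2.25 ± 1.88 against 2.503 ± 3.70, SD, n = 3 each), so the positive sign belongs to the log2(CPM + 1) scale, and with a pseudocount of 0.1 the value was 1.15. Without CKO 2 the sign turned, to -0.15 (limma, adjusted p = 0.933), as it did without WT 1 (-0.34), and without WT 3 it was 1.14.

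Adamts12 (ENSMUSG00000047497, chr15:11064790-11349231, plus strand), which cuts cartilage oligomeric matrix protein, had 2, 3 and 2 reads in WT and 4, 1 and 0 reads in CKO. The CPM values were 1.45, 2.25 and 1.69 in WT and 2.75, 0.722 and 0 in CKO, so the CKO libraries spanned the WT libraries on both sides. The log2 fold change was -0.58 with a standard error of 0.57 (limma, adjusted p = 0.610). It was -1.08 without CKO 1 and -0.13 without CKO 3, and with a pseudocount of 0.5 or 0.1 in place of 1 it was -0.85 or -1.60.

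**Figure D3:**
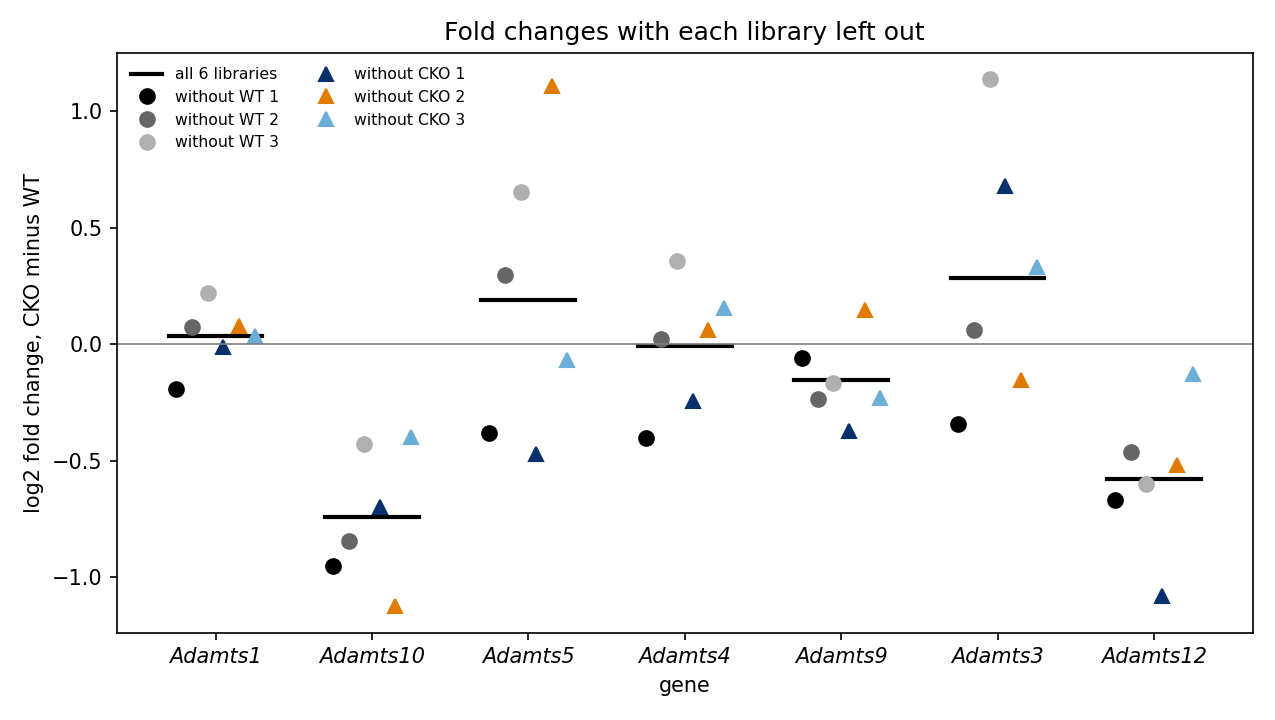
Log2 fold change (CKO minus WT, on log2(CPM + 1)) of the 7 members with more than 3 reads in some library, from all 6 libraries (bars) and from the 5 that remain when 1 is dropped (circles for WT, triangles for CKO). Adamts10 and Adamts12 stay below 0 in every case, and Adamts5 moves from -0.47 to 1.11.

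The wider family gave few reads as well. Of 9 other ADAMTS genes, 4 were in the table and 2 were tested, with 0 of 2 past limma's adjusted threshold. Adamts7, the partner of Adamts12 in cutting cartilage oligomeric matrix protein, was chosen after its values were seen. It had 2, 4 and 6 reads in WT and 0, 0 and 1 in CKO, so that all CKO libraries were below all WT libraries. Its mean passed 1 CPM through the WT libraries (group means 3.17 CPM in WT and 0.289 CPM in CKO), and every CKO library was at the floor. No ratio and no p-value is therefore given for Adamts7. Of 7 ADAMTS-like genes, 5 were tested and 0 passed the adjusted threshold. The criterion of the study was met by 1 of the 5, with 3 reads or fewer in every CKO library, and by 10.4% of all genes tested. Adamts7 met it as well, which is not read as a result because the gene was kept through WT alone. The genotypes did not overlap for 3 of the 5 ADAMTS-like genes and for 27.7% of all genes tested. They did not overlap for 2 of the 2 other ADAMTS genes either, but Adamts7 is 1 of these, so that count is not read as a result.

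Of 17 substrate genes listed, 16 were tested, and 8 passed while 8 did not: 7 were lower and 1 higher in CKO past limma's adjusted threshold, with a median log2 fold change of -0.76 against 0.013 over all genes. Over all genes tested, 5.78% passed, 3.18% higher and 2.6% lower in CKO. The 3 libraries of each genotype did not overlap for 12 of the 16, and for 27.7% of all genes tested. All 7 that were lower are also on the marker lists. Acan, Comp, Col2a1 and Matn3 are listed as chondrocyte markers, and Dcn, Col1a2 and Col5a1 as fibroblast and perichondrium markers. The summed levels of both lists were lower in CKO as given above, and the 7 calls are not separate from those marker results. The part of cell make-up in this count was not tested. With 1 library left out, the number of substrates lower past the threshold was 3 to 8 and the number higher was 0 to 2: it was 3 and 0 without WT 2 or without CKO 3, 4 and 0 without CKO 1, 5 and 0 without WT 1, 5 and 1 without WT 3, and 8 and 2 without CKO 2. The share of all genes past the threshold moved as well, from 1.75% without WT 2 to 10.8% without CKO 2.

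Acan, the gene of aggrecan, measured 482, 477 and 746 CPM in WT and 186, 276 and 147 CPM in CKO. Every CKO library was below every WT library, and the log2 fold change was -1.50 with a standard error of 0.25 (limma, adjusted p = 0.00859). There were 14.8, 9.07 and 10.6 reads of Acan for each read of Adamts1, Adamts4 and Adamts5 together in WT, and 2.84, 6.37 and 2.83 in CKO. The ratio was 11.5 ± 2.95 in WT and 4.01 ± 2.04 in CKO (SD, n = 3 each). The exact two-sided permutation test on the log2 ratio gave p = 0.1, the lowest that 3 libraries against 3 can give. The protease sum overlapped between genotypes and Acan did not.

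Vcan, the gene of versican, had 20, 30 and 16 reads in WT and 18, 17 and 8 in CKO, or 14.5, 22.5 and 13.5 CPM against 12.4, 12.3 and 6.93 CPM. The groups did not overlap, and the log2 fold change of -0.64 with a standard error of 0.34 missed the threshold (limma, adjusted p = 0.316). Comp, the substrate of Adamts12 and Adamts7, fell by 3.08 on the log2 scale (limma, adjusted p = 2.3e-05). The other substrates that fell were Dcn, the small proteoglycan decorin (by 1.89), Matn3, a matrilin (by 1.57), Col1a2 (by 1.09), Col2a1, the main fibrillar collagen of cartilage (by 1.03), and Col5a1 (by 0.89). The calls of Matn3 and Col5a1 were lost with any 1 library other than CKO 2 left out, that of Col2a1 without WT 2, CKO 1 or CKO 3, and that of Col1a2 without WT 2 or CKO 3. Fn1, the gene of fibronectin, rose by 0.98 (limma, adjusted p = 0.0267), and that call was lost without WT 1, WT 2, CKO 1 or CKO 3.

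**Figure D4:**
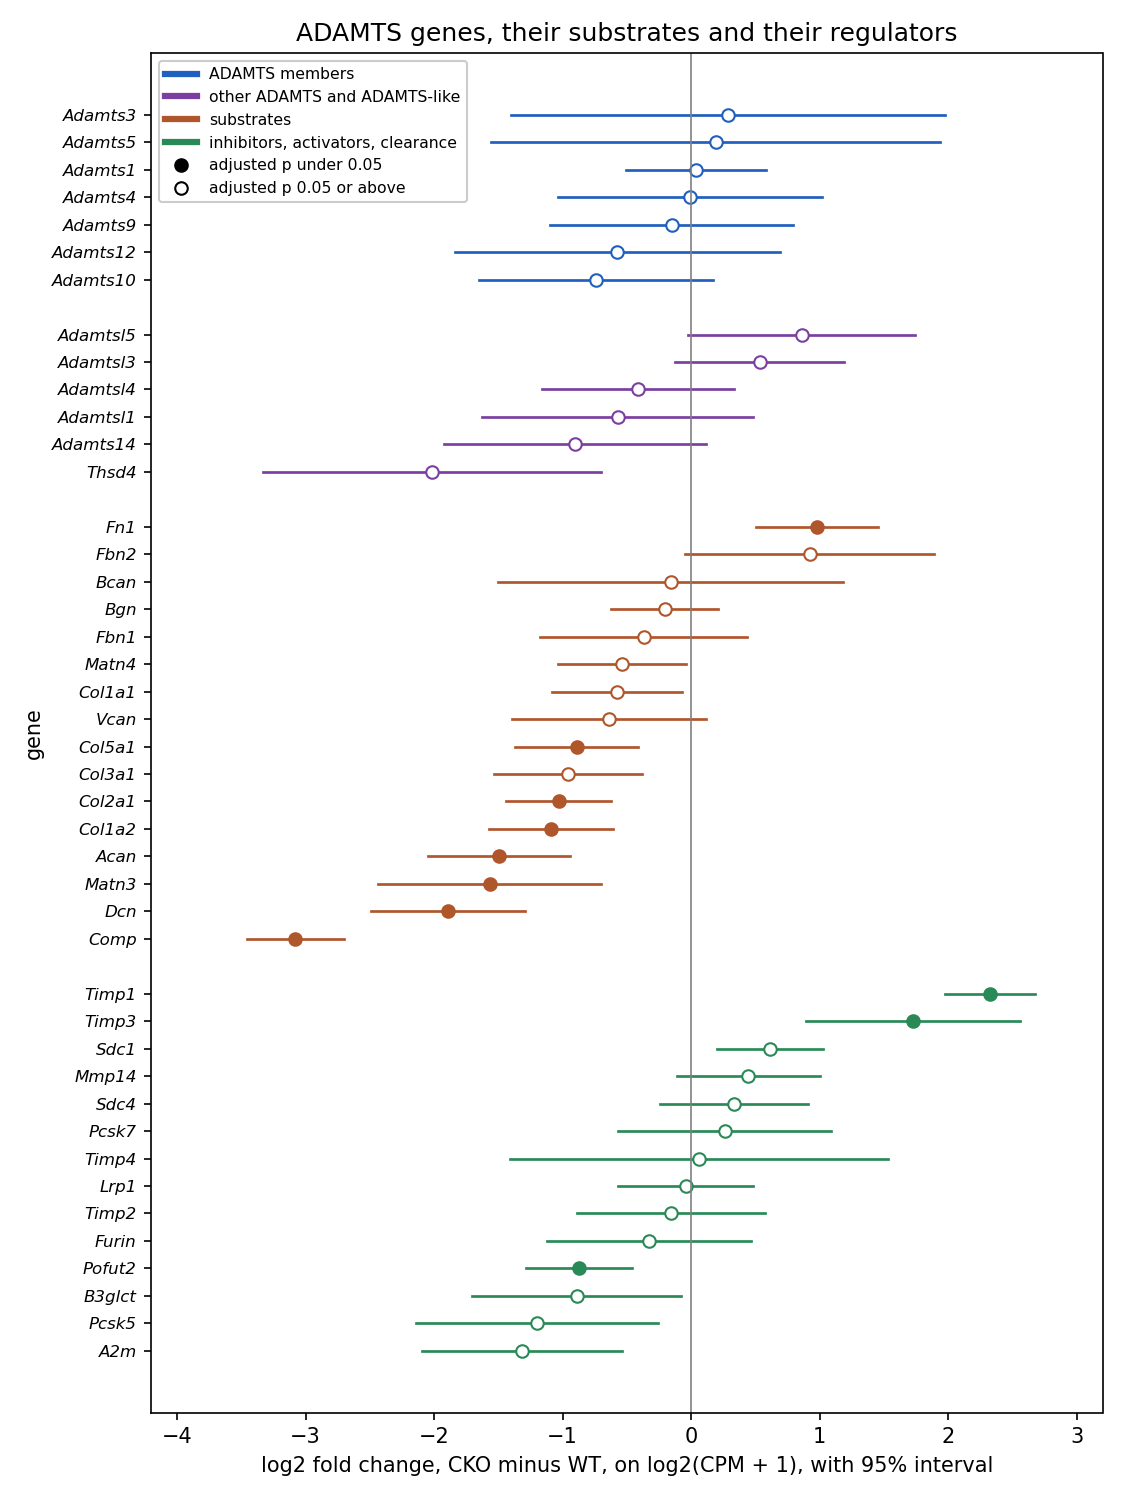
Log2 fold change (CKO minus WT, on log2(CPM + 1)) with its 95% interval from limma for members and listed genes with more than 3 reads in some library and more than 3 reads summed in each genotype, with filled points for an adjusted p under 0.05. All 7 members shown are open points whose intervals cross 0, and the substrates hold 7 filled points to the left of 0 and 1 to the right.

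Of 16 genes listed that inhibit, activate or clear the ADAMTS proteases, 14 were tested, and 2 were higher, 1 was lower and 11 did not pass limma's adjusted threshold, with a median log2 fold change of 0.0080. The share past that threshold was 5.78% over all genes tested. The criterion of the study was met by 2 higher and 2 lower genes of the 14, and by 10.4% of all genes. The 2 lower ones were the inhibitor A2m (log2 fold change -1.31) and the convertase Pcsk5 (-1.20). Both missed the adjusted threshold (limma, adjusted p = 0.0550 and 0.134). The genotypes did not overlap for 7 of the 14 and for 27.7% of all genes, and the log2 fold change was positive for 7 and negative for 7. Timp3, the inhibitor of the aggrecanases, had 193, 221 and 144 reads in WT and 1011, 304 and 780 in CKO, or 140, 166 and 122 CPM against 695, 219 and 676 CPM. All CKO libraries were above all WT libraries, with CKO 2 the nearest to WT. Timp3 rose by 1.72 on the log2 scale with a standard error of 0.38 (limma, adjusted p = 0.0262). That call was lost, at a log2 fold change of 1.44 to 1.84 and an adjusted p of 0.0709 to 0.112, with any 1 library other than CKO 2 left out. Timp1, an inhibitor with little activity on aggrecanases, rose by 2.33 (limma, adjusted p = 8.2e-05) and kept its call without any 1 library.

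Pofut2, the enzyme that places O-fucose on the thrombospondin repeats of ADAMTS proteases before their secretion, had 378, 316 and 398 reads in WT and 240, 232 and 147 in CKO. All CKO libraries were below all WT libraries, at 165, 167 and 127 CPM against 274, 237 and 336 CPM. It fell by 0.87 on the log2 scale with a standard error of 0.19 (limma, adjusted p = 0.0238). The adjusted p was 0.0558 to 0.114 with any 1 library other than CKO 2 left out. Lrp1 measured 57.3, 72.0 and 103 CPM in WT and 86.0, 67.8 and 66.7 CPM in CKO. Its groups overlapped, and the log2 fold change was -0.04 with a standard error of 0.24 (limma, adjusted p = 0.943).

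**Figure D5:**
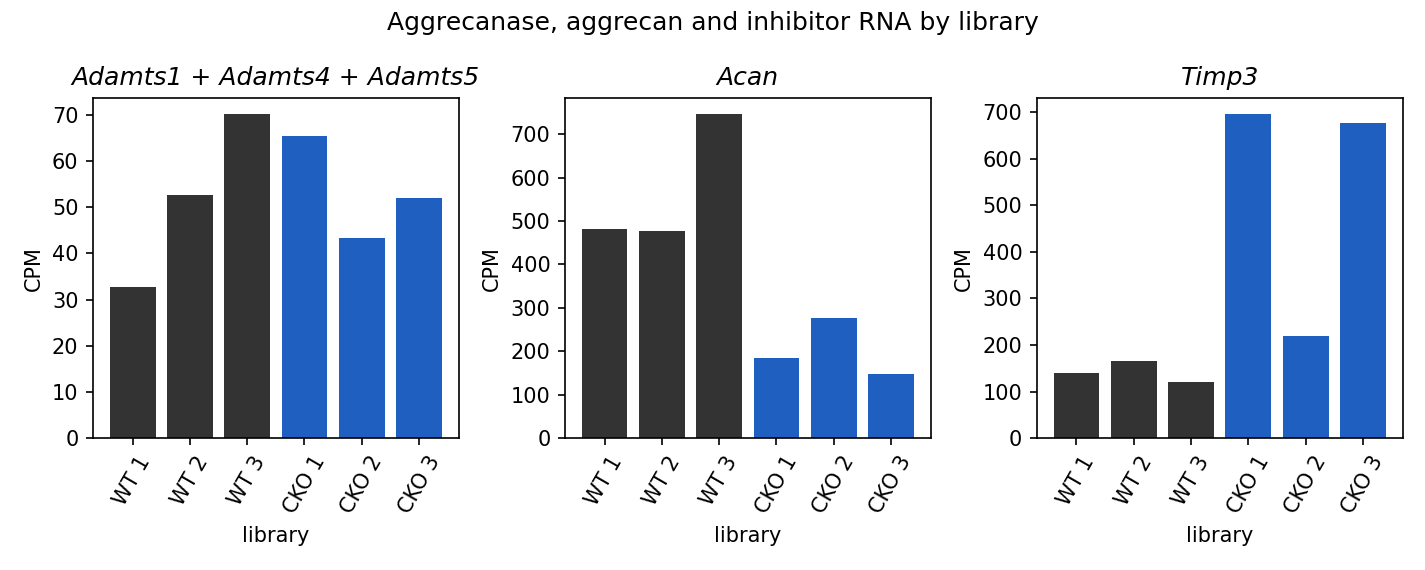
CPM in each library, as bars from 0, of Adamts1, Adamts4 and Adamts5 summed, of Acan and of Timp3, with dark bars for WT and blue bars for CKO. The protease bars overlap between genotypes (32.6 to 70.1 against 43.3 to 65.3 CPM), all 3 Acan bars of CKO are below those of WT, and the Timp3 bar of CKO 2 is well below those of CKO 1 and CKO 3.

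The genes whose levels over the 6 libraries were most like those of Adamts1, among 6826 genes averaging 10 CPM or more, were Il1r1, the receptor of interleukin-1 (Pearson's r = 0.994), Pank4 (0.985), Ubap2l (0.983), G6pc3 (0.968) and Atp5h (0.958). Il1r1 had 122 reads in all. With 6 libraries and so many genes compared, correlations of this size are a description, and the 6 points share the depth and composition of their libraries.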

How the data were processed

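The authors deposited CPM per gene and library as one table. The submitters' processing notes name cutadapt 2.5, HISAT2 and featureCounts 1.6.3. The genome build, the annotation and the counting strand are not given in the sources used here. The library kit was a stranded one for mRNA. All values (100%) came out as whole reads to within 6.1e-06 of a read, so reads were recovered.

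Genotypes were compared on log2(CPM + 1) with limma 3.58.1 in R 4.3.3 (empirical Bayes with a mean-variance trend) over genes averaging 1 CPM or more, with Benjamini-Hochberg adjustment. Fold changes are on that scale and understate changes of low genes. Alternatives included edgeR 4.0.16 and DESeq2 1.42.0 on recovered reads. The code was also run on simulated counts with large changes, which does not bear on whether smaller changes in the members could be found. Intervals of read ratios are exact binomial ones.

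Columns were matched to the labels by genotype and replicate number. Positions and exon lengths came from GENCODE M21 on GRCm38, matched by Ensembl identifier (15212 of 15217). Members and gene lists were chosen with earlier results of these data known. The text names all members, up to 6 genes of each list past the adjusted threshold, and Acan, Vcan, Timp3 and Lrp1. Col5a1 and Matn3, beyond that number, were added so that the count is whole. Adamts7, A2m, Pcsk5 and the marker genes named singly were chosen after their values were seen. No RefSeq protein sequence was used here. A result on 1 gene outside the lists is not reported here.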

Additional observations from a re-analysis of the deposited data

How the results depend on the processing

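Under all 15 alternatives 0 members passed the adjusted threshold. The criterion of the study was met by 0 to 1 members with 1 library left out (1, Adamts10, without CKO 2) and by 0 otherwise. In the fit without CKO 2 it was met by 1484 of 12055 genes tested. Of all genes, 703 passed the adjusted threshold, and 212 to 1298 did with 1 library left out, the lowest without WT 2 and the highest without CKO 2. With a term for the replicate number 385 passed, and Matn3, Col5a1 and Pofut2 did not (adjusted p = 0.0668, 0.105 and 0.0683). Deviations of same-numbered libraries correlated at -0.21 to 0.073 over 6827 genes, so the numbers are not taken to pair the libraries. Of 6 libraries, 0 correlated best with the library of the same number. The study states that mice were compared with littermates, but the labels do not give the litter. Litter is therefore not a term in any fit, and a pairing by litter that the numbers do not follow was not tested. The criterion was met by 1264 genes, and by 822 of 7704 tested with edgeR on recovered reads.

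Log2 fold changes near 0 changed sign. Adamts4 was 0.0086 with a pseudocount of 0.1. Adamts1 was -0.0096 after TMM scaling, -0.037 with edgeR, -0.039 with edgeR without a filter (chosen after seeing the data) and -0.022 with DESeq2. Adamts3 was -0.11 with edgeR without a filter and -0.14 with DESeq2. With 1 library left out the values ran from -0.19 to 0.22 for Adamts1, from -0.34 to 1.14 for Adamts3, from -0.40 to 0.36 for Adamts4, from -0.47 to 1.11 for Adamts5, from -0.37 to 0.15 for Adamts9, from -1.12 to -0.40 for Adamts10, from -1.08 to -0.13 for Adamts12 and from -0.24 to 0.18 for Lrp1. Adamts10 and Adamts12 stayed negative in every alternative that tested them. Acan, Comp, Dcn and Timp1 passed the adjusted threshold under all 15. Counting the fit reported first, Col1a2 passed in 14 of 16 fits, Col2a1 in 13, Fn1 in 12, Timp3 in 11, Pofut2 in 10, and Col5a1 and Matn3 in 9. The cause of these changes was not tested. The edgeR filter left 3 members, a minimum of 5 CPM left 4, and DESeq2 gave an adjusted p to 4, so depth limits what these alternatives can show.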
